A study of Mus musculus with 6 samples.

Results

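The genes described here are 28 genes of cholesterol synthesis and transport, measured in S-phase cells of the embryonic mouse cortex that did or did not carry a Tis21-GFP signal. They were taken as every non-control probe whose accession belongs to one of 28 gene symbols in RefSeq, and all 28 had a probe among the 19988 named genes on the array. All 28 were tested among 13136 genes, and the probe used for each was well above background on all 6 arrays, as were those of 12243 of the tested genes. The embryos were C57BL/6J mice at embryonic day 14.5, heterozygous for GFP knocked into the Tis21 (Btg2) locus, so both groups carried the same allele. Dissociated dorsal telencephalon was stained with a vital DNA dye, S-phase cells were gated by their intermediate DNA content, and the sort divided them into Tis21-GFP positive cells (3 arrays) and Tis21-GFP negative cells (3 arrays). Each replicate pooled about 200000 cells from 30 hemispheres of 15 embryos, and the authors used the best 3 of their experiments by a rule not given in the sources used here. The p-values measure the spread between these pools.

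Tis21 is switched on in neural progenitors that are about to divide into neurons or neuron-producing cells, so in this tissue its GFP reporter marks committed progenitors, mostly intermediate progenitors, and the negative cells are mostly radial glia. Cells build cholesterol from acetyl-CoA through mevalonate, farnesyl diphosphate and squalene, and then through a series of sterols. The transcription factor SREBP-2 and its relative SREBP-1 are held in the endoplasmic reticulum by SCAP and the INSIG proteins when sterols are plentiful, and are released to activate the synthesis genes when sterols are scarce. The developing brain makes its own cholesterol, and lipoproteins carrying apolipoprotein E move it between cells.

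Values are log2 processed signals minus each array's 75th percentile over its probes, so 0 is that percentile, and a level cannot be set against that of another probe. Differences are positive minus negative on the log2 scale with the standard error (SE) of limma's model, and a gene was called when its Benjamini-Hochberg adjusted p over all 13136 genes was under 0.05. Of the 28 members, 3 were called lower in positive cells (Apoe, Hmgcs1 and Idi1) and 1 was called higher (Npc2). Among all tested genes 13.0% were called lower, 12.8% higher and 25.8% in either direction, while 14.3% of the members were called. Their differences ran from -1.27 for Apoe to 0.50 for Npc2, with a median of -0.19, beside a median of 0.12 over all tested genes. The differences of 21 of the 28 members lay under that median of all genes. The groups did not overlap for 10 members, 7 of them lower (Apoe, Cyp51, Hmgcs1, Idi1, Msmo1, Pmvk and Scap) and 3 higher in positive cells (Insig2, Npc2 and Tm7sf2), against 46.8% of all tested genes. The arrays could be set in 3 pairs by replicate number, and 10 members were lower in positive cells in all 3 pairs (Abca1, Apoe, Cyp51, Hmgcs1, Idi1, Msmo1, Pmvk, Sc5d, Scap and Sqle), against 25.0% of all tested genes. Only 5 were higher in all 3 pairs (Ebp, Fdft1, Insig2, Npc2 and Tm7sf2), against 40.4% of all tested genes. In pooled cells, fewer cells of a type and less RNA per cell cannot be told apart.

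**Figure D1:**
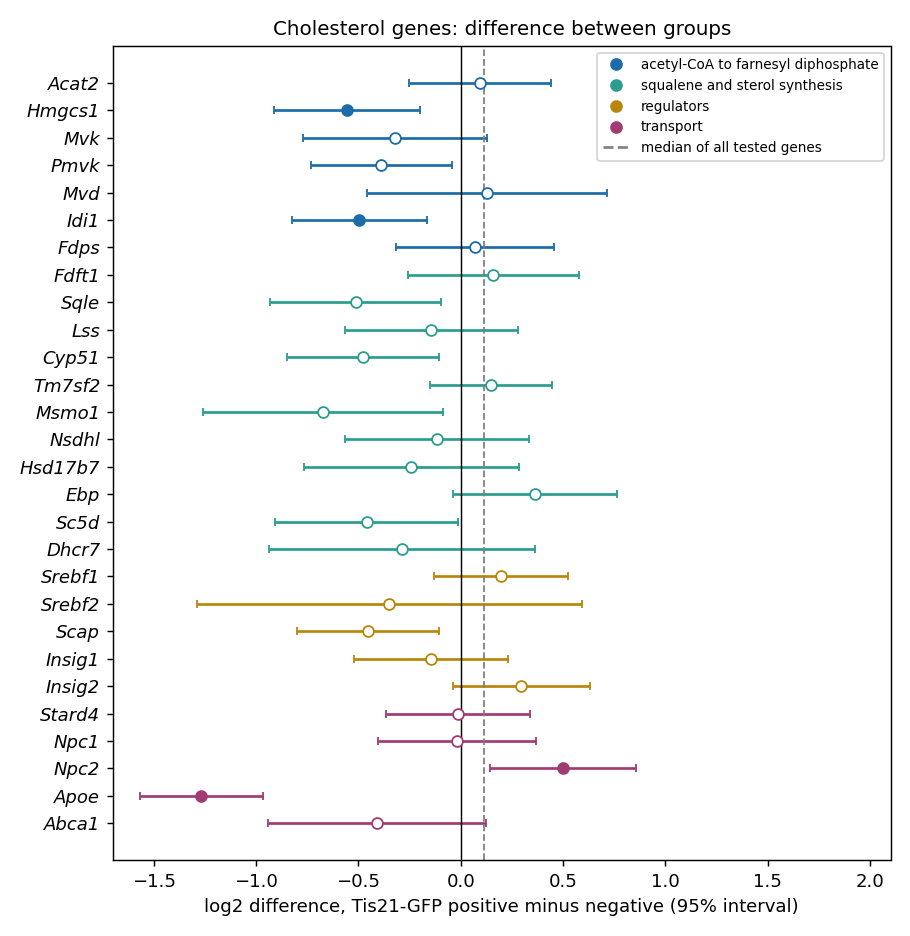
The log2 difference, Tis21-GFP positive minus negative, of each of the 28 members by role, with its 95% interval from limma's model. Filled points are the 4 genes with an adjusted p under 0.05, and the dashed line is the median of all tested genes (0.12). Most points lie left of the dashed line, and Apoe, at -1.27, lies farthest from it.

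The 7 enzymes from acetyl-CoA to farnesyl diphosphate had a median difference of -0.32, while Acat2, Mvd and Fdps had positive values. Of the 7, 2 were called lower in positive cells and 0 higher, against 13.0% and 12.8% of all tested genes. Hmgcs1, the synthase that makes HMG-CoA, stood at 5.64, 5.91 and 5.93 in the negative arrays and at 5.09, 5.47 and 5.25 in the positive arrays. Every positive array lay under every negative one, and the means were 5.27 ± 0.19 (SD, n = 3) in positive and 5.83 ± 0.16 (SD, n = 3) in negative cells. The difference was -0.56 (SE 0.16), which is 1.47-fold lower in positive cells (adjusted p = 0.0337). Idi1, the isomerase that balances the 2 five-carbon building blocks, stood at 3.75, 4.08 and 3.77 in negative and at 3.40, 3.44 and 3.28 in positive cells. Its positive arrays were again all below the negative ones. The difference was -0.50 (SE 0.14), or 1.41-fold lower (adjusted p = 0.0385). Within the 3 pairs Hmgcs1 differed by -0.55, -0.44 and -0.68, and Idi1 by -0.35, -0.64 and -0.50.

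Pmvk, the kinase that adds the second phosphate to mevalonate, also had groups that did not overlap, at 3.88, 4.23 and 4.00 in negative and 3.76, 3.67 and 3.50 in positive cells, but its difference of -0.39 (SE 0.15) did not pass (adjusted p = 0.0892). Mvk, the kinase before it, differed by -0.32 (SE 0.19, adjusted p = 0.245), and its positive replicate 1 (3.55) lay among the negative arrays. The remaining enzymes of this stretch had values close to 0. Acat2, which joins 2 molecules of acetyl-CoA, differed by 0.09 (95% interval -0.25 to 0.44). Mvd, which removes a carboxyl group from the mevalonate diphosphate, differed by 0.13 (95% interval -0.46 to 0.71). Fdps, which makes farnesyl diphosphate, differed by 0.07 (95% interval -0.32 to 0.45). The called genes therefore do not follow a run of neighbouring steps, since Hmgcs1 and Idi1 are separated in the pathway by Mvk, Pmvk and Mvd.

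Among the 11 enzymes of squalene and sterol synthesis, none passed the test (0 higher and 0 lower), against 25.8% of all tested genes. Their median difference was -0.24. Msmo1, the oxidase that starts removal of the methyl groups at carbon 4 of the sterol, had the most negative value of all 18 enzymes, -0.67 (SE 0.25, adjusted p = 0.0863). It stood at 4.97, 5.63 and 4.88 in negative and at 4.63, 4.77 and 4.07 in positive cells, so the groups did not overlap but each spread over more than the gap between them. Cyp51, the demethylase that follows ring closure, stood at 2.23, 2.75 and 2.43 in negative and 2.03, 2.01 and 1.93 in positive cells. Its groups did not overlap either, and the difference was -0.48 (SE 0.16, adjusted p = 0.0617). Sqle, the epoxidase that commits squalene to sterols, stood at 5.05, 5.20 and 4.74 in negative and 4.74, 4.43 and 4.28 in positive cells. Here positive replicate 1 (4.742) and negative replicate 3 (4.739) met, and the difference was -0.51 (SE 0.18, adjusted p = 0.0698). Sc5d, a late desaturase, differed by -0.46 (SE 0.19, adjusted p = 0.115), with lower values in positive cells in each pair.

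The other sterol enzymes were closer to 0 or had wider spreads. Dhcr7, the reductase of the last step in one branch, differed by -0.29 (SE 0.28), and its positive arrays ran from -0.06 to 1.07, wider than the negative range of 0.48 to 1.00. Hsd17b7, the reductase of the carbon 4 step, differed by -0.24 (SE 0.23), and Nsdhl, its partner dehydrogenase, by -0.12 (SE 0.19). Lss, the cyclase that forms the ring system, differed by -0.14 (SE 0.18). On the other side of 0 were Fdft1, the squalene synthase, at 0.16 (SE 0.18), and Tm7sf2, a sterol reductase, at 0.15 (SE 0.13). Ebp, the isomerase that shifts a ring double bond, stood at 1.91, 2.22 and 1.62 in negative and 2.24, 2.37 and 2.21 in positive cells. Its positive replicate 3 and negative replicate 2 were close, at 2.21 and 2.22, and its difference of 0.36 (SE 0.17) was the most positive of the enzymes and did not pass (adjusted p = 0.156). Second probes, which Mvk, Pmvk, Tm7sf2, Nsdhl and Hsd17b7 had above background, gave -0.21, -0.25, -0.03, -1.08 and -0.41. That of Tm7sf2 opposed its first probe in sign. In a fit of all probes 0 of the 5 passed, and neither did the probes of Hmgcs1 (adjusted p = 0.0563), Idi1 (0.0637) and Npc2 (0.0757). Of the called members only Apoe passed in that fit (adjusted p = 0.00142). The -1.08 of Nsdhl rested on negative replicate 3, which stood at -0.06 beside -2.38 and -2.14 in the other negative arrays. The second probe of Fdft1 was too dim to be tested.

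**Figure D2:**
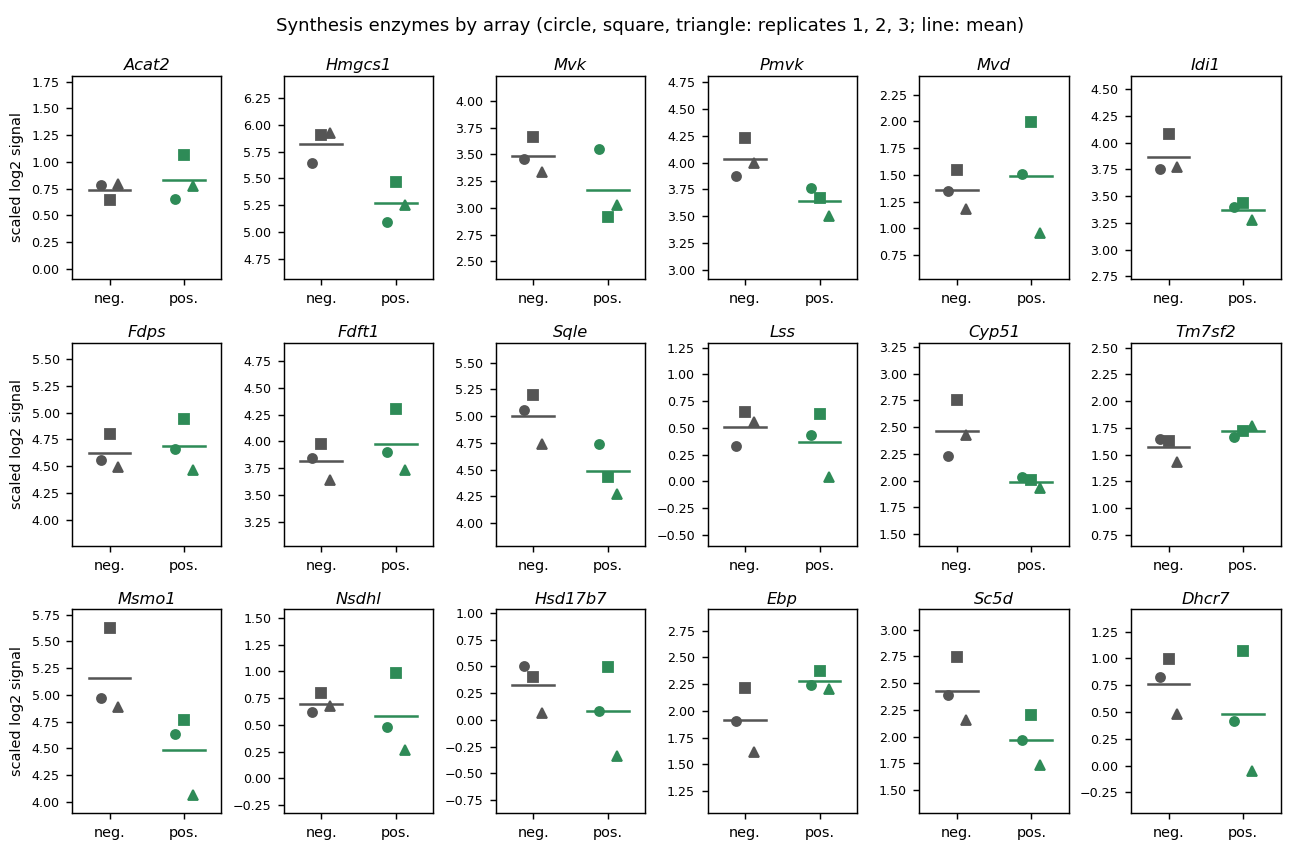
Scaled log2 signal of the 18 synthesis enzymes on each array, with Tis21-GFP negative arrays in grey and positive arrays in green; circles, squares and triangles are replicates 1, 2 and 3, and lines are means of 3 arrays. All panels span the same log2 range. Positive arrays lie under all negative arrays for Hmgcs1, Pmvk, Idi1, Cyp51 and Msmo1, while Acat2, Fdps and Fdft1 overlap.

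Within both groups one order of the arrays recurred. Replicate 2 was the highest and replicate 3 the lowest positive array for 11 of the 18 enzymes and for 15 of all 28 members, an order found in 29.6% of all tested genes. In the negative group the same order, replicate 2 highest and 3 lowest, held for 9 of the 18 enzymes and 12 of the 28 members, against 21.6% of all tested genes, and replicate 2 was highest with replicate 1 lowest for 5 enzymes, against 23.5%. The positive replicate 3 array was also the dimmest, with a 75th percentile of 212.7 intensity units against 284.0 to 341.1 on the other 5 arrays. The part of that dimmer signal in the spread was not tested. In pair 2 the median difference of the squalene and sterol enzymes was 0.08, beside -0.20 in pair 1 and -0.41 in pair 3.

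Promoter sequence was read for the members to show what the synthesis genes share apart from these values. The RefSeq table of assembly GRCm38.p6, with 250 bases before and 50 after each start, held 23 of the 28 members. It lacked the enzymes Fdft1, Fdps and Sqle and the transport genes Npc1 and Stard4, which were therefore not searched. The motifs searched on both strands were the NF-Y box CCAAT, the SP1 box GGGCGG, the E-box CACGTG and the sterol regulatory element of the form TCACNCCAC. NF-Y and SP1 are factors known to work beside SREBPs. The NF-Y box was present in 19 of 23 members, among them 14 of 15 enzymes, against 43.3% of 10482 tested genes and 37.4% of all 32851 promoters. The SP1 box was present in 21 of 23 members, against 67.3% of tested genes and 35.7% of all promoters. The E-box was present in 6 of 23 members, against 11.5% of tested genes and 7.15% of all promoters. The sterol regulatory element in these letters was present in Hmgcs1 alone, 1 of 23, against 1.35% of tested genes and 1.24% of all promoters. Members and tested genes were counted per gene, as holding a motif if any of their promoters did. All promoters were counted singly, so that share is a different measure. A match is a stretch of letters and not a shown binding site.

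The 250 bases before the start are given for both called enzymes, for the enzyme with the most negative value and for Apoe, the member with the largest difference, so that their motifs can be set side by side. Hmgcs1 lies at chr13:119690101-119690350 on the plus strand, Idi1 at chr13:8885356-8885605 on the plus strand, Msmo1 at chr8:64733579-64733828 on the minus strand and Apoe at chr7:19699189-19699438 on the minus strand, each read 5′ to 3′ along its gene. Capitals mark the NF-Y box and the SP1 box, each in either orientation, and the sterol regulatory element, and none of these overlap here.
Hmgcs1: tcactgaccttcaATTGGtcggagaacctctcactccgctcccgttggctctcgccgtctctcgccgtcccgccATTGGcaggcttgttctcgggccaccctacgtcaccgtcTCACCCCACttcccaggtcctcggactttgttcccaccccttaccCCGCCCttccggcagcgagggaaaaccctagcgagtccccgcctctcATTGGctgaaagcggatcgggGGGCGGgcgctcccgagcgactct
Idi1: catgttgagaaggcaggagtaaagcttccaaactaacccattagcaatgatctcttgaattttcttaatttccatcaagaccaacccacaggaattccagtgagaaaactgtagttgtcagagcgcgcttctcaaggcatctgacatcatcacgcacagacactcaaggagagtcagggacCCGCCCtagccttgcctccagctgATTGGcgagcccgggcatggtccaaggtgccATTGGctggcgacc
Msmo1: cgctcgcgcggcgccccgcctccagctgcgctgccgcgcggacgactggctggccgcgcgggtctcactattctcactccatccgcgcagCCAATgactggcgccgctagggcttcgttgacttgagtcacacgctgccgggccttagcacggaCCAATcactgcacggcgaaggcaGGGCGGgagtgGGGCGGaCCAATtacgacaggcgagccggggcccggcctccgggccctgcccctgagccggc
Apoe: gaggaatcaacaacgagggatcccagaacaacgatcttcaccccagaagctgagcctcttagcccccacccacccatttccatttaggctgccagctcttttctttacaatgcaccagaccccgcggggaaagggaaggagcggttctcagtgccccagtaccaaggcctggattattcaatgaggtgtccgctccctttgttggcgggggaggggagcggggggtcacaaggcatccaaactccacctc
Hmgcs1 held 3 NF-Y boxes and 2 SP1 boxes in this stretch, with the sterol regulatory element at -137 to -129 between them, counting back from the start. Idi1 held 2 NF-Y boxes and 1 SP1 box, and Msmo1 held 3 and 2. The Apoe stretch held none of the 4 motifs.

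Of the 5 regulators, 0 were called higher and 0 lower, against 25.8% of all tested genes called, and their median difference was -0.14. Scap, the escort protein of the SREBPs, had groups that did not overlap, at 3.40, 3.39 and 3.30 in negative and 2.85, 3.16 and 2.73 in positive cells. Its difference was -0.45 (SE 0.15, adjusted p = 0.0605). Insig2, which retains SCAP in the endoplasmic reticulum, stood at 1.27, 1.51 and 1.61 in negative and at 1.66, 1.88 and 1.74 in positive cells. All positive arrays were above all negative ones, by less than the spread within either group, and the difference was 0.30 (SE 0.15, adjusted p = 0.163). Insig1, the related protein that is itself a target of the SREBPs, differed by -0.14 (SE 0.16). The second probe of Insig2 gave 0.14.

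Srebf2, the gene of the factor that drives the synthesis enzymes, was the least reproducible member. It stood at 1.41, 1.11 and 1.21 in the negative arrays but at 0.95, 1.81 and -0.07 in the positive arrays. Its positive replicate 2 was thus the highest and replicate 3 the lowest of all 6 arrays. The SE of its difference of -0.35 was 0.41, and only 2.5% of tested genes had a larger SE. Its second probe gave the same order of the positive arrays, at -1.87, -0.84 and -2.61, with a difference of -0.15. Without positive replicate 3 the difference of the first probe became 0.13, so its sign rests on that array. Srebf1, the gene of the SREBP better known for fatty acid synthesis, differed by 0.20 (95% interval -0.13 to 0.52).

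The 5 transport genes held both the lowest and the highest difference of the 28, with a median of -0.02. They had 1 lower and 1 higher call, against 13.0% and 12.8% of all tested genes. Apoe, the lipoprotein component made mainly by glial cells, stood at 3.54, 3.40 and 3.34 in negative and at 2.26, 2.12 and 2.09 in positive cells. The gap between the groups was far wider than the spread within either, with means of 2.16 ± 0.09 (SD, n = 3) and 3.43 ± 0.10 (SD, n = 3). The difference was -1.27 (SE 0.13, 95% interval -1.57 to -0.97), or 2.41-fold lower in positive cells (adjusted p = 0.000518). It was -1.28, -1.27 and -1.25 in the 3 pairs.

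Npc2, the small protein that hands cholesterol on inside lysosomes, stood at 3.96, 4.26 and 3.90 in negative and at 4.43, 4.72 and 4.46 in positive cells. Its groups did not overlap, and the difference of 0.50 (SE 0.15) was 1.41-fold higher in positive cells (adjusted p = 0.048), with 0.48, 0.46 and 0.56 in the pairs. Npc1, the membrane protein that takes cholesterol from NPC2, differed by -0.02 (95% interval -0.41 to 0.37) and was not called. Abca1, which exports cholesterol to lipoproteins, stood at -0.73, -1.27 and -0.80 in negative and -0.91, -1.67 and -1.46 in positive cells. It was lower in positive cells in each pair, the groups overlapped, and the difference was -0.41 (SE 0.23, adjusted p = 0.216). Stard4, a carrier of cholesterol through the cytoplasm, differed by -0.01 (SE 0.15), and by 0.34 at its dimmer second probe.

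**Figure D3:**
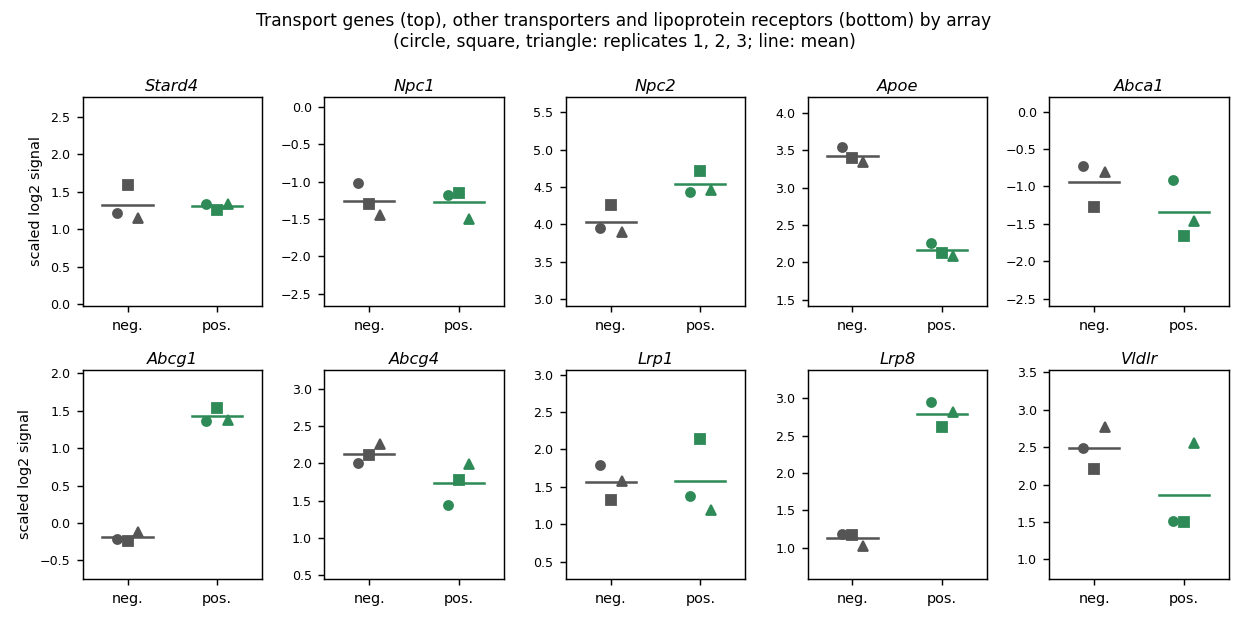
Scaled log2 signal on each array of the 5 transport genes (top) and of 5 other genes of sterol export and lipoprotein uptake (bottom), with negative arrays in grey and positive arrays in green; circles, squares and triangles are replicates 1, 2 and 3, and lines are means of 3 arrays. All panels span the same log2 range. Apoe and Abcg4 are lower and Npc2, Abcg1 and Lrp8 are higher on every positive array, and Npc1, Stard4, Abca1, Lrp1 and Vldlr overlap.

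Other genes of the pathway were taken from 2 further lists. Of 20 other sterol handling genes, 2 were called higher and 0 lower, against 12.8% and 13.0% of all tested genes. Their median difference was 0.03. Lrp8, a lipoprotein receptor that binds reelin and APOE, stood at 1.18, 1.17 and 1.03 in negative and at 2.95, 2.62 and 2.81 in positive cells, a difference of 1.67 (SE 0.14, adjusted p = 0.000269). Abcg1, an exporter of cholesterol like ABCA1, stood at -0.21, -0.23 and -0.12 in negative and at 1.37, 1.54 and 1.37 in positive cells, a difference of 1.62 (SE 0.13, adjusted p = 0.000228). Both were thus about 3-fold higher in positive cells (3.17-fold and 3.07-fold), while Apoe was lower. Abcg4, another gene of sterol export, stood at 2.003, 2.113 and 2.264 in negative and at 1.445, 1.781 and 1.996 in positive cells. Its groups did not overlap, but its difference of -0.39 (SE 0.17) did not pass (adjusted p = 0.132). Vldlr, the receptor that shares reelin with LRP8, differed by -0.63 (SE 0.30, adjusted p = 0.148), with positive replicate 3 inside the negative range. With replicate number as a block (the paired fit), 3 of the 20 were called lower, against 14.9% of all tested genes. These were Vldlr (adjusted p = 0.0423), Soat1 (difference -0.54, adjusted p = 0.0301) and Mylip (difference -0.54, adjusted p = 0.0396). Soat1 esterifies cholesterol, and Mylip is a ligase that marks lipoprotein receptors for degradation. Vldlr and Mylip were each called in 2 of 17 alternatives and Soat1 in 1. Other genes of the 20 were called lower more often, Scarb1 (main difference -0.45, adjusted p = 0.0582) in 5 and Tmem97 (-0.34, adjusted p = 0.141) in 3. Of 10 other genes of fatty acid synthesis, 2 were called higher and 1 lower, with a median of -0.09. The 30% called in either direction stood beside 25.8% of all tested genes. Acly, which supplies cytoplasmic acetyl-CoA to both fatty acid and cholesterol synthesis, stood at 4.96, 5.18 and 5.11 in negative and at 6.02, 6.27 and 6.02 in positive cells, a difference of 1.02 (SE 0.14, adjusted p = 0.0016). Lpin1, a phosphatidate phosphatase, was higher by 0.68 (SE 0.20, adjusted p = 0.0395) and Elovl6, a fatty acid elongase, was lower, with a difference of -0.54 (SE 0.15, adjusted p = 0.0305). Lpin1 was called in 9 and Elovl6 in 11 of 17 alternatives, and Acly, Abcg1 and Lrp8 in all 17.

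How far the enzymes passed the test depended on how the arrays were scaled. With the authors' deposited log2 values, 9 members were lower in positive cells and 0 higher, against 13.1% of all tested genes called lower. These were Apoe, Cyp51, Hmgcs1, Idi1, Msmo1, Pmvk, Sc5d, Scap and Sqle, and the same 9 were called with quantile normalization and when the 75th percentile came from only those probes that every array detected. When each array was centred on its median instead, only Apoe was called lower, against 9.30% of all tested genes, and Npc2 remained higher. With replicate number as a block, 6 members were lower (Apoe, Hmgcs1, Idi1, Msmo1, Sc5d and Sqle), against 14.9% of all tested genes, and Npc2 was higher. In that paired fit the adjusted p was 0.0236 for Msmo1, 0.0346 for Sc5d and 0.041 for Sqle. A shift of a whole array moves all genes alike, but the authors' values and quantile normalization did not act as such a shift. With the authors' values the median of all genes was 0.02. There Hmgcs1 moved from -0.56 to -0.84 and Sqle from -0.51 to -0.80, while Abca1 moved the other way, from -0.41 to -0.33. Between 20 and 22 of the 28 members lay under the median of all tested genes in every setting that kept all 6 arrays. The median of all genes moved from 0.12 to -0.06 with the percentile from commonly detected probes and to 0.30 with median centring, and the members' median moved with it, from -0.19 to -0.37 and -0.01.

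Over the 17 alternatives Apoe was called in 17, Hmgcs1 in 11, Idi1 in 8 and Npc2 in 6. The sign of each of these 4 held. The 17 count quantile normalization and the authors' values separately, though these gave nearly the same differences. Leaving out 1 array at a time, Hmgcs1 was no longer called without negative replicate 2 or 3 or positive replicate 1 or 3, with adjusted p up to 0.12, Idi1 was not called in any of the 6 fits, and Npc2 was called only without negative replicate 2. The share of higher genes among all calls was 49.6%, but 29.1% with the percentile from probes that every array detected, 39.5% with the authors' values and 65.8% with median centring.

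**Figure D4:**
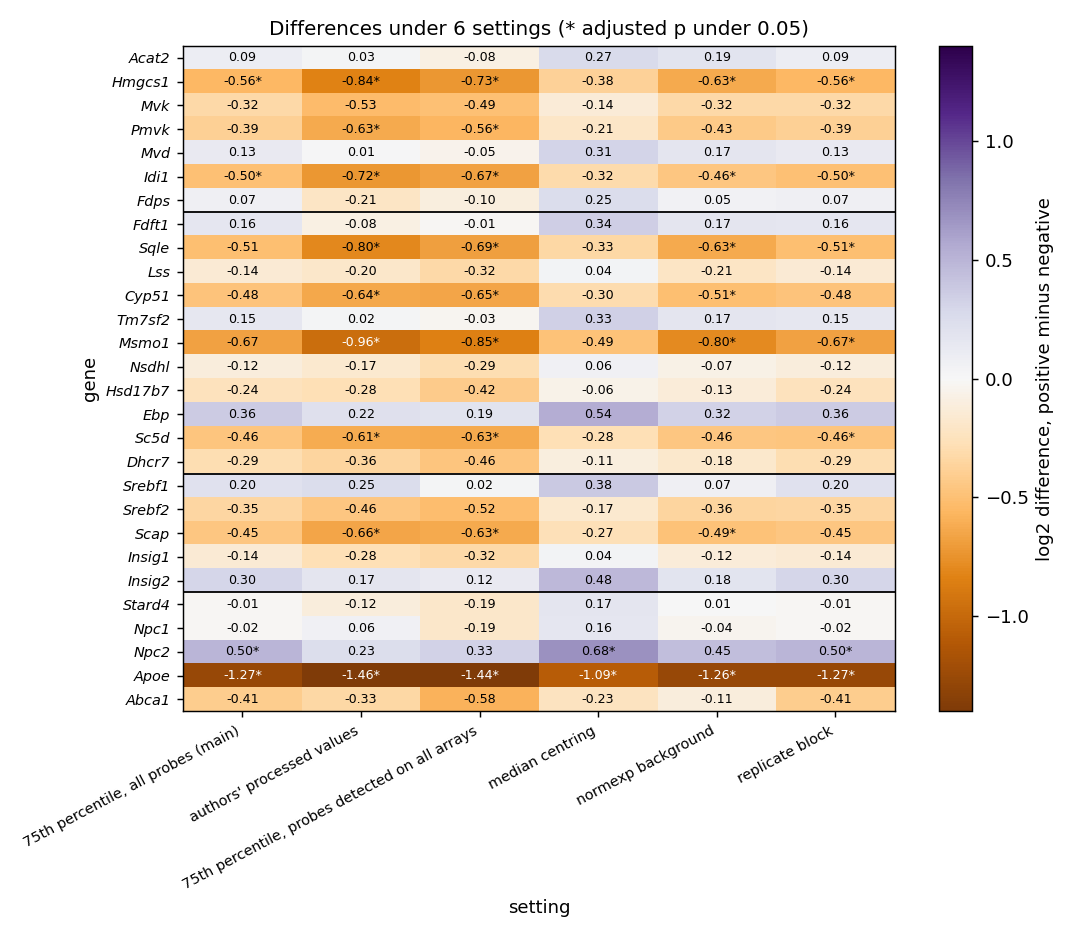
Log2 difference of each of the 28 members, positive minus negative, under 6 ways of scaling or fitting the arrays; rows are grouped by role, colour and printed number give the difference, and an asterisk marks an adjusted p under 0.05. Apoe carries the mark in every column, and 9 members carry it with the authors' processed values against 2 with median centring.

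Cell type markers were read beside the members. The marker lists were chosen with earlier results of these data known, so their counts describe the groups and do not test which cells were separated. Btg2, the gene of the sorted locus, was higher in positive cells by 0.77 (SE 0.17, adjusted p = 0.014). All 17 radial glia markers were called lower in positive cells (median -1.42), and those with the smallest adjusted p were Ttyh1 at -1.81 and Slc1a3 at -2.12. All 14 intermediate progenitor markers were called higher (median 2.50), with the smallest adjusted p for Elavl2 at 2.34 and Hes6 at 2.09. The 14 include Btg2, the sorted locus itself. Neurod4, also among them, was above background on 0 negative arrays and so was tested only through the positive group. Markers of other cells were also called lower, 13 of the 14 tested for microglia and macrophages (median -2.38) and 9 of the 9 tested for meningeal and mesenchymal cells (median -3.05). So were 6 of the 10 tested for endothelial cells and pericytes (median -1.04) and 1 of the 7 tested for erythroid cells (median -0.76, with negative values for all 7). Among all tested genes 13.0% were called lower and 12.8% higher. Of the 10 endothelial and pericyte markers 8 had negative differences. The others were Kdr (0.45, adjusted p = 0.053, groups not overlapping) and Slco1c1 (0.33), and neither was called. The sizes depended on how dim signals were treated: normexp background correction gave the microglial list a median of -1.30, the mesenchymal list -1.45 and the endothelial list -0.41, and with probes required above background on all 6 arrays the mesenchymal median was -2.19. Of the tested markers, 2 of microglia, 3 of mesenchyme, 3 of endothelium and pericytes and 1 of radial glia were above background on 0 positive arrays and so were tested only through the negative group. Summed over each list, the linear signal in units of each array's 75th percentile was 637 to 713 in negative and 267 to 345 in positive arrays for radial glia, and 54.1 to 79.3 and 366 to 414 for intermediate progenitors. It was 45.1 to 50.0 and 24.3 to 30.3 for microglia, 37.4 to 41.8 and 12.3 to 19.6 for mesenchyme, 18.1 to 21.1 and 14.2 to 15.7 for endothelium and pericytes, and 55.0 to 91.2 and 28.8 to 83.6 for erythroid cells. Such sums add probes of unlike response and are ruled by the brightest: Itgam, which was not called (-0.40, adjusted p = 0.104), among microglial markers, and Fn1 (-1.10) among mesenchymal ones. Laptm5 of microglia, Col3a1 of mesenchyme and Rgs5 of pericytes were above background (by the scanner's flag) on 0 positive arrays and were at least 4.11-fold, 16.6-fold and 7.09-fold lower there, while Trem2, at -2.83, was above background on all 6 arrays. Apoe is known to be expressed by radial glia and by macrophages and microglia, and its difference of -1.27 moved in the same direction as both marker lists. That direction was not particular to them, since the mesenchymal, endothelial and pericyte, and erythroid medians were negative too. The part of any of these cells in the differences of Apoe, Hmgcs1 and Idi1 was not tested.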

How the data were processed

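Total RNA from 6 sorted pools was hybridised in 1 colour (Cy3). The deposited scanner files give each spot's background-corrected intensity without scaling across arrays; the submitters' processing notes name Agilent Feature Extraction 10.7.1.1. In the authors' deposited table the values are log2, and each column has a median of 4.661. The sources used here do not give the normalization, but quantile normalization gave nearly the same differences as those values. The scanner software's other deposited columns, flags of 0 or 1 per the file headers, marked outliers and spots well above background.

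Control and outlier spots (118 to 191 an array) were dropped, spots of a probe averaged as log2, and each array's 75th percentile subtracted (212.7 to 341.1 intensity units). Of 55681 probes, 28519 to 31274 an array were well above background. Probes well above background on all 3 arrays of a group were kept, and the brightest probe stood for its gene. Symbols came from RefSeq for 26370 probes; 29311 were unnamed here. Summed marker levels add 2 to the power of each scaled value.

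limma 3.58.1 (lmFit, eBayes; R 4.3.3) compared the groups, and was tested on simulated data. Over 3 against 3 arrays an exact permutation test cannot go below p = 0.1. Deviations of same-numbered samples correlated at 0.225, 0.133 and 0.372 (highest other 0.0561), so numbers pair the samples. The main fit left this pairing out, and only the alternative with replicate number as a block used it. All arrays shared 1 slide and 1 scan. Alternatives changed scaling, background correction, filter, probe choice, fit and array set. All members are named. Of other lists, up to 4 called pathway genes or 2 called markers with the smallest adjusted p are named. Btg2, Trem2, Vldlr and the genes plotted beside the transport genes were named for their role. Soat1, Mylip, Scarb1, Tmem97, Itgam, Fn1, Kdr, Slco1c1 and Neurod4 were named after their values were seen. Members and lists were chosen with earlier results of these data known.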

Additional observations from a re-analysis of the deposited data

How the results depend on the processing

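Taking the percentile from probes that every array detected gave 932 higher genes against 1685, 9 lower and 0 higher members against 3 and 1, and role medians of -0.49 (to farnesyl diphosphate), -0.32 (regulators) and -0.19 (transport). Median centring gave 1 lower member and medians of -0.14, 0.036 and 0.16 for the same roles. Quantile normalization and the authors' values gave nearly the same differences. Each gave 9 and 0 members and medians of -0.53 (to farnesyl diphosphate) and -0.28 (regulators), and the authors' values 1123 higher genes. Normexp gave 7 lower and 0 higher members; no filter gave 892 higher genes and 1 and 0 members; variance trend with robust fit gave 7 lower members; array row as a block gave 0 higher. The replicate block (pairing) gave 6 lower members and kept the 4 called members; it also called Vldlr, Soat1 and Mylip lower. Leaving out 1 array gave 794 to 1738 higher genes, 1 to 3 lower and 0 to 1 higher members, and regulator medians from -0.22 to 0.13. The causes were not tested. All member probes used were well above background, and each group had 3 arrays.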
